A study of Mus musculus with 12 samples.

Results

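The mitochondrial genome is a small circle of DNA inside the mitochondrion, and the genes described here are those it encodes, taken as every gene of the table whose name starts with mt-. There were 37 such genes among 38339, namely 13 that code for proteins, 2 ribosomal RNAs and 22 transfer RNAs, and all lay on the mitochondrial chromosome. Their RNA was measured by total RNA sequencing of bone marrow cells from mice transplanted with primary T-ALL, a leukemia of immature T-lineage cells, on an F1 background of C57BL/6 x 129Sv/Jae. Recipients had been given dexamethasone (DEX, a synthetic glucocorticoid) or vehicle (VEH) 4 hours earlier. All recipients were moribund at treatment, in both groups, and the labels give no age, sex or dose. Each of 6 leukemias gave 1 DEX and 1 VEH library, each from a single recipient, so that 6 DEX and 6 VEH libraries stood in 6 pairs. Leukemia 1 is code 73A-46B, leukemia 2 is 73M-19A, leukemia 3 is 78A-143B, leukemia 4 is 2M-127B, leukemia 5 is 20M-116B and leukemia 6 is JW-81-59B. The comparison bears on whether 4 hours of the drug moved mitochondrial transcripts and on how they varied between leukemias. No sort for leukemic cells is given in the labels, so host marrow cells could be present.

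The genome is transcribed from both strands into long precursors by the RNA polymerase POLRMT with the factors TFAM and TFB2M. Transfer RNAs lie between most of the other genes, and the enzymes RNase P and ELAC2 cut them out, which frees the ribosomal and messenger RNAs on either side. The proteins are core subunits of respiratory complexes I, III and IV and of ATP synthase, whose other subunits, like all of complex II, come from nuclear genes.

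Values were FPKM, that is, fragments scaled to both the length of the gene and the size of the library. This is meant to put genes of different length on a common scale. Short gene models and shared sequence limit such comparisons between genes. FPKM summed to 1466471 to 2019058 per library. The file held no counts. A depth read from the FPKM step that 1 fragment makes in sparse genes came to 11700000 to 36100000 fragments in 11 libraries, and 96200000 in the VEH library of leukemia 2, where the estimate was poorly defined. At that depth mt-Nd4l, the lowest of the measured members, still had at least 306 estimated fragments in every library. The 16 T-lineage markers summed to 1920 to 2940 FPKM in DEX libraries and to 2050 to 3150 in VEH libraries, and none of them was at 0 in every library. The 15 granulocyte markers summed to 1540 to 5540 FPKM in DEX libraries and to 2350 to 9170 in VEH libraries, and 11 B-lineage markers summed to 2.53 to 12.3 FPKM (DEX) and 2.45 to 67.8 FPKM (VEH). In such bulk samples, fewer cells of a type and less RNA per cell cannot be told apart.

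Several members share bases with a neighbour or with a nuclear copy, which bears on how their values can be read. The sequences below are those of the 3 overlaps between coding genes, of 2 transfer RNA genes that flank the ribosomal RNAs, and of mt-Nd4l, all on GRCm38 from GENCODE M21 transcripts and written 5′ to 3′ on the plus strand. In the first 3, capitals mark the overlap and 12 bases on each side are in lower case. mt-Atp8 and mt-Atp6 overlap at chrM:7927-7969 (43 bases), mt-Nd4l and mt-Nd4 at chrM:10167-10173 (7 bases), and mt-Nd5 and mt-Nd6, which lie on opposite strands, at chrM:13552-13565 (14 bases). The transfer RNA genes are shown whole. In mt-Nd4l, capitals mark the 3 bases that its nuclear copy lacks.
mt-Atp8 and mt-Atp6: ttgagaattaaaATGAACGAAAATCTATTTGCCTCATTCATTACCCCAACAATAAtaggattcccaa
mt-Nd4l and mt-Nd4: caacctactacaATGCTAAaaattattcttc
mt-Nd5 and mt-Nd6: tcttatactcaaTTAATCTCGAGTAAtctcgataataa
mt-Tf (chrM:1-68): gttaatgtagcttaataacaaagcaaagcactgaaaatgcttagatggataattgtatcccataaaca
mt-Tv (chrM:1025-1093): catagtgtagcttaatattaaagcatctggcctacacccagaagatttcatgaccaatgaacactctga
mt-Nd4l (chrM:9877-10173): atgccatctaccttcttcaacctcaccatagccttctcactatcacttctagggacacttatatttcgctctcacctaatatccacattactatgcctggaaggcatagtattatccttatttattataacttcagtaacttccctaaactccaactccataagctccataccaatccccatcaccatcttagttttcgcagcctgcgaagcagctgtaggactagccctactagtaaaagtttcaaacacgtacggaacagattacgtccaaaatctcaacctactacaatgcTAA

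The 2 ribosomal RNAs and all 13 coding genes were above 0 in every library, and these 15 genes passed the filter on low values (at least 1 FPKM in at least 6 of 12 libraries). All 22 transfer RNA genes were listed at 0 in all 12 libraries. Their gene models run over 59 to 75 bases, 14 on the plus strand and 8 on the minus strand, and mt-Tf and mt-Tv, the transfer RNAs for phenylalanine and valine, are 68 and 69 bases long. A zero at this length was not particular to the mitochondrion: each of the 2182 gene models of up to 100 bases in the table was at 0 in all libraries. The shortest gene model above 0 was of 117 bases, and 52 of 1790 models of 101 to 120 bases (2.91%) and 231 of 1314 models of 121 to 150 bases were above 0. Neither the level of the transfer RNAs nor a change in it can therefore be read from these values.

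By level, the larger ribosomal RNA stood highest of the 15 genes. mt-Rnr2, the large-subunit ribosomal RNA (ENSMUSG00000064339, GRCm38 chrM:1094-2675), averaged 17600 ± 2940 FPKM with DEX and 17600 ± 2430 FPKM with VEH (SD, n = 6 each), and mt-Rnr1, the small-subunit ribosomal RNA (ENSMUSG00000064337, chrM:70-1024), averaged 5120 ± 1220 FPKM (DEX) and 5260 ± 931 FPKM (VEH). The labels name a stranded total RNA kit and mention no separate removal of ribosomal RNA. Whether the kit itself removed some is not given, so these levels need not stand for the cell's ribosomal RNA. Among 21226 protein-coding genes, ordered by mean FPKM, mt-Co3, mt-Co2, mt-Co1 and mt-Atp8 held places 2 to 5 and mt-Atp6 place 8. The 3 mt-Co genes encode the catalytic core of complex IV (cytochrome c oxidase), and mt-Atp6 and mt-Atp8 encode membrane subunits of ATP synthase.

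The coding genes differed in level by up to 38.5-fold, although 12 of the 13 lie on the same strand. The low end of this range was mt-Nd4l, whose value has a limit given below. Genes that share a messenger RNA also differed in FPKM: in VEH libraries mt-Atp8 over mt-Atp6 averaged 1.61, and mt-Nd4l over mt-Nd4 averaged 0.370. The second of these ratios carries the same limit. The order of levels between genes is therefore approximate. The genes of complex IV averaged 5960 ± 344 FPKM with DEX and 5860 ± 321 FPKM with VEH for mt-Co1, 6070 ± 739 FPKM (DEX) and 5760 ± 926 FPKM (VEH) for mt-Co2, and 6420 ± 754 FPKM (DEX) and 6520 ± 877 FPKM (VEH) for mt-Co3. mt-Atp8 averaged 5560 ± 777 FPKM with DEX and 4890 ± 807 FPKM with VEH, and mt-Atp6, whose start lies within it, 3130 ± 412 FPKM (DEX) and 3050 ± 557 FPKM (VEH). mt-Cytb, the mitochondrially encoded subunit of complex III, averaged 1300 ± 242 FPKM with DEX and 1230 ± 283 FPKM with VEH. These 6 genes and mt-Nd1 and mt-Nd3 made up the upper group, with no library below 1021 FPKM.

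The 7 genes of complex I, which takes electrons from NADH, split into an upper pair and 5 lower genes. mt-Nd3 averaged 1880 ± 248 FPKM with DEX and 1620 ± 300 FPKM with VEH, and mt-Nd1 averaged 1590 ± 90 FPKM (DEX) and 1380 ± 131 FPKM (VEH). mt-Nd4 averaged 468 ± 125 FPKM with DEX and 474 ± 120 FPKM with VEH, mt-Nd5 316 ± 111 FPKM (DEX) and 314 ± 109 FPKM (VEH), and mt-Nd2 307 ± 28.2 FPKM (DEX) and 276 ± 38.5 FPKM (VEH). mt-Nd6, the only coding gene of the minus strand, averaged 190 ± 37.3 FPKM with DEX and 166 ± 39.9 FPKM with VEH. mt-Nd4l averaged 169 ± 22 FPKM (DEX) and 168 ± 22.8 FPKM (VEH), within the spread of mt-Nd6. Among mt-Nd4, mt-Nd5 and mt-Nd2 the ranges also overlapped, as they did among mt-Co1, mt-Co2, mt-Co3 and mt-Atp8, and among mt-Nd3, mt-Nd1 and mt-Cytb. The lowest library of mt-Atp6, at 2527 FPKM, was above the highest of mt-Nd3, at 2189 FPKM.

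**Figure D1:**
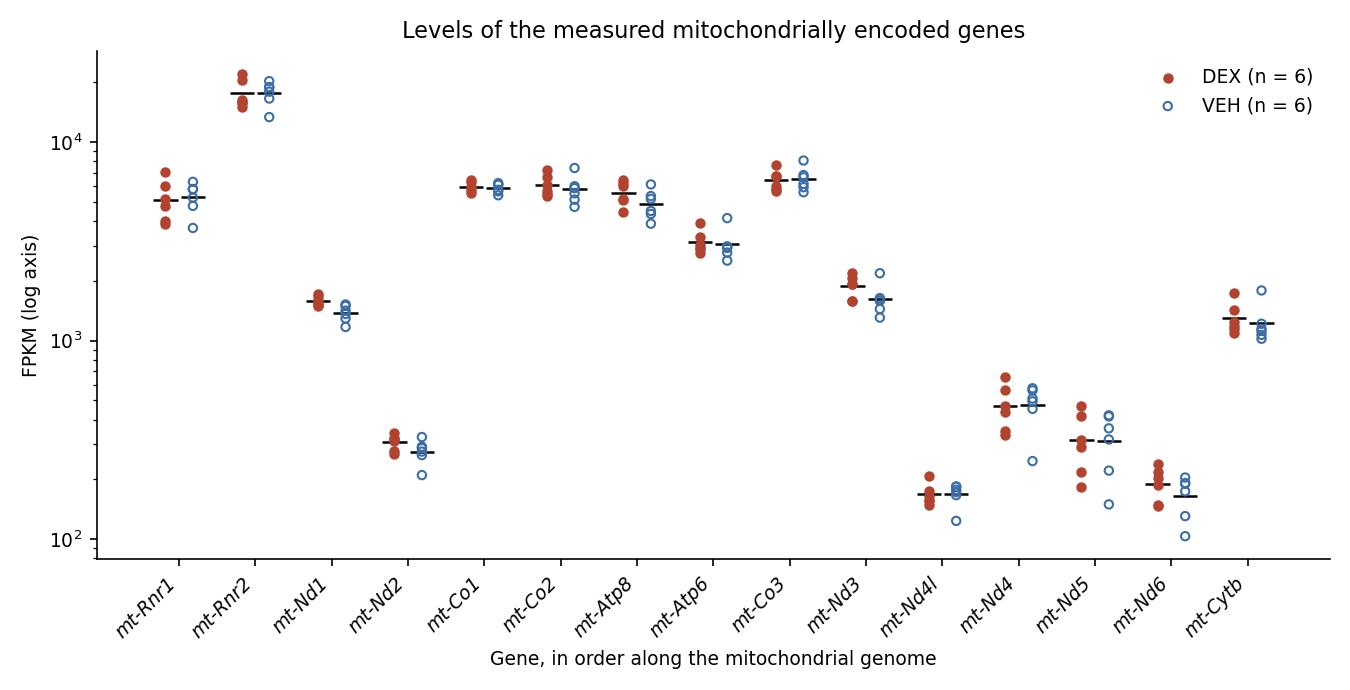
FPKM (log axis) of the 15 measured mitochondrially encoded genes in order along the genome, with 1 point per library, DEX left of VEH and a line at the mean of 6 libraries. The ribosomal RNA mt-Rnr2 stands at 17600 FPKM in both groups and mt-Nd4l at 169 (DEX) and 168 FPKM (VEH), and the DEX and VEH points overlap for every gene.

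The level of mt-Nd4l has a particular limit. Its value was identical, to the 2 decimals of the table, in all 12 libraries to that of Gm10222 (ENSMUSG00000067736), a nuclear gene model at chr1:24612407-24612700 on the minus strand. The 294 bases of Gm10222 differ from the first 294 of mt-Nd4l at 0 positions, and the mitochondrial gene has 3 further bases, its stop codon. Of the windows of 100 bases (the read length) in mt-Nd4l, 98.5% are in Gm10222. Fragments of these genes thus cannot be told apart, and what part of the value of either belongs to it was not tested. Its position near the bottom of the coding genes carries that limit.

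Other members shared less with the nuclear genes of the table. mt-Co2 shared 15% of its windows of 100 bases with Gm13341, which averaged 0.134 FPKM, mt-Co1 shared 5.5% with Gm13340, at 0.036 FPKM, and mt-Nd2 shared 3.2% with Gm13339, which was listed at 0. Larger shares of mt-Atp6 (99.5%), mt-Co2 (99.5%), mt-Co3 (99.9%), mt-Nd3 (97.6%) and mt-Nd4 (60.8%) lie in GENCODE gene models that were not analysed here.

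As a share of all summed FPKM, the 13 coding genes held 1.62% to 2.13% in DEX libraries and 1.78% to 2.32% in VEH libraries, with means of 1.90 ± 0.224% (DEX) and 1.98 ± 0.193% (VEH) (SD, n = 6 each). The share was higher with DEX in leukemias 1, 3 and 4 and lower in leukemias 2, 5 and 6, by -0.511 to 0.347 percentage points. The sum it is taken of was itself not level: gene models of small RNA held 65.6 ± 3.62% of it with DEX and 62.9 ± 1.72% with VEH. Of the summed FPKM of protein-coding genes, the 13 genes held 6.89 ± 0.215% with DEX and 6.60 ± 0.649% with VEH, higher in 4 leukemias and lower in 2. With FPKM multiplied by gene length, as an estimate of the share of fragments, they held 1.15 ± 0.0666% with DEX and 1.12 ± 0.108% with VEH. The direction of the mean difference thus depended on the denominator, and each was within the spread between leukemias. Without leukemia 6 the mean difference in the share of all summed FPKM was 0.00896 percentage points, against -0.0777 with all 6.

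The 2 ribosomal RNAs together held 1.02% to 1.98% of all summed FPKM in DEX libraries and 0.974% to 1.72% in VEH libraries, with means of 1.31 ± 0.366% (DEX) and 1.44 ± 0.274% (VEH). The mean difference was -0.134 percentage points, and -0.0203 without leukemia 2. With FPKM times length they held 1.39 ± 0.253% with DEX and 1.41 ± 0.203% with VEH. The sum of the ribosomal RNAs was 0.688 ± 0.166 of the sum of the coding genes with DEX and 0.732 ± 0.151 with VEH. It was lowest in leukemia 4 (0.553) and highest in leukemia 1 (0.929) among DEX libraries, and lowest in leukemia 3 (0.546) and highest in leukemia 2 (0.955) among VEH libraries. The transfer RNAs, all listed at 0, held 0% in each library.

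None of the 15 genes passed the test for a difference between DEX and VEH. In a limma fit over 12358 genes with the leukemia as a block (differences of log2(FPKM + 1), Benjamini-Hochberg adjusted p under 0.05), 0 members were higher and 0 lower. Over all genes tested, 528 (4.27%) were higher and 1147 (9.28%) lower, 1675 (13.6%) in either direction. A share of 13.6% would be 2.03 of 15 genes, so a count of 0 says little about these genes in particular. The smallest adjusted p was 0.107, for mt-Nd6. At an unadjusted p under 0.05, 4 members (mt-Nd1, mt-Nd2, mt-Nd3 and mt-Nd6, all of complex I) were above and 0 below, against 9.69% and 20.5% of all genes. The groups overlapped for each of the 15 genes, as against 1.73% of all genes whose DEX and VEH libraries did not overlap.

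The 95% intervals show what size of change the values leave room for with FPKM as deposited. All 15 lay between -0.37 and 0.42 on the log2 scale. The median difference was 0.05 over the 15 genes and 0.08 over the 13 coding genes, beside -0.05 over all genes tested. The intervals do not cover the choice of scaling. With libraries rescaled to a fixed sum the median over the 15 genes was -0.09, and with median-of-ratios scaling it was 0.11.

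The 4 genes with an unadjusted p under 0.05 had these values. mt-Nd1 (ENSMUSG00000064341, chrM:2751-3707) had 1493 FPKM at the lowest, 1580 at the median and 1723 at the highest with DEX, against 1171, 1390 and 1518 with VEH. It was higher with DEX in all 6 leukemias, by 0.22 ± 0.08 on the log2 scale (SE; 95% interval 0.03 to 0.40; adjusted p = 0.11). mt-Nd2 (ENSMUSG00000064345, chrM:3914-4951) had 267, 316 and 342 FPKM with DEX, against 210, 282 and 327 with VEH. It too was higher in all 6, by 0.16 ± 0.06 (0.02 to 0.29; adjusted p = 0.11). Of all genes tested, 5.97% were higher with DEX in all 6 leukemias.

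mt-Nd3 (ENSMUSG00000064360, chrM:9459-9806) had 1578, 1920 and 2189 FPKM at the lowest, median and highest with DEX, against 1305, 1590 and 2182 with VEH, a difference of 0.22 ± 0.09 (0.01 to 0.42; adjusted p = 0.152). mt-Nd6 (ENSMUSG00000064368, chrM:13552-14070, minus strand) had 146, 195 and 239 FPKM with DEX, against 104, 182 and 204 with VEH, a difference of 0.21 ± 0.08 (0.04 to 0.39; adjusted p = 0.107). The upper ends of the groups nearly met for mt-Nd3, and the VEH library of leukemia 3 stood lowest for mt-Nd6. In mt-Nd1 and mt-Nd3 leukemia 2 showed the largest difference of the 6, 0.56 in each, and without it the differences were 0.15 and 0.15 (adjusted p = 0.218 and 0.319). None of the 4 passed the threshold, or fell below 0, under the 22 other settings tried, but their size depended on scaling. Rescaled to TPM (a fixed sum per library), the differences were 0.08 for mt-Nd1, 0.02 for mt-Nd2, 0.08 for mt-Nd3 and 0.08 for mt-Nd6, and 0 members had an unadjusted p under 0.05. With quantile normalization they were 0.06, 0.09, 0.09 and 0.19 in the same order, and 1 member was above and 1 below at an unadjusted p under 0.05.

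The other coding genes of complex I gave differences close to 0. mt-Nd4 had 335, 453 and 657 FPKM at the lowest, median and highest with DEX, against 247, 503 and 575 with VEH, a difference of -0.01 ± 0.11 (adjusted p = 0.971). mt-Nd5 had a median of 304 and a highest value of 471 FPKM with DEX, against 340 and 420 with VEH, with its lowest values in leukemia 6 (DEX) and leukemia 3 (VEH, 150 FPKM) and a difference of 0.02 ± 0.14 (adjusted p = 0.934). mt-Nd4l differed by 0.01 ± 0.09 (adjusted p = 0.965). In these 3 the means hide differences of opposite sign between leukemias, described below.

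Complexes III and IV and ATP synthase were likewise not past the threshold. mt-Cytb had 1086, 1210 and 1741 FPKM with DEX, against 1021, 1130 and 1787 with VEH, a difference of 0.10 ± 0.07 (adjusted p = 0.397). mt-Co1 differed by 0.02 ± 0.08 (adjusted p = 0.867), mt-Co2 by 0.08 ± 0.09 (adjusted p = 0.544) and mt-Co3 by -0.02 ± 0.10 (adjusted p = 0.909). mt-Atp8 had 4459, 5590 and 6413 FPKM with DEX, against 3875, 4830 and 6107 with VEH, a difference of 0.19 ± 0.09 (-0.01 to 0.39; adjusted p = 0.19). mt-Atp6 differed by 0.05 ± 0.07 (adjusted p = 0.698).

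For the ribosomal RNAs, mt-Rnr1 had 3840, 4950 and 7013 FPKM at the lowest, median and highest with DEX, against 3688, 5510 and 6292 with VEH, a difference of -0.05 ± 0.14 (-0.37 to 0.26; adjusted p = 0.834). mt-Rnr2 had 14964, 16100 and 21995 FPKM with DEX, against 13325, 18400 and 20211 with VEH, a difference of -0.01 ± 0.13 (-0.30 to 0.28; adjusted p = 0.971). For both genes the spread between libraries was larger than the mean difference, and the groups overlapped over most of their range.

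**Figure D2:**
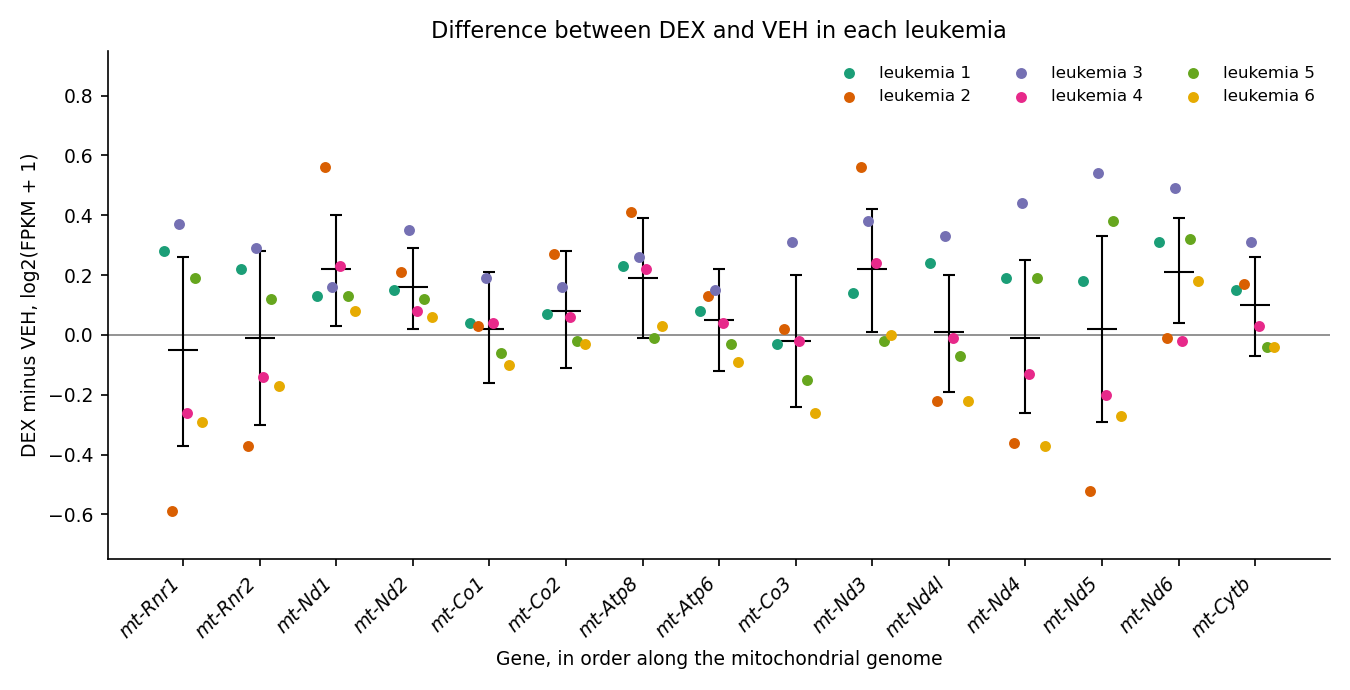
DEX minus VEH on the log2(FPKM + 1) scale for the 15 genes in genome order, with 1 point per leukemia, the mean as a black line and the 95% interval from limma as a bar. The interval is above 0 for mt-Nd1, mt-Nd2, mt-Nd3 and mt-Nd6 before adjustment over all genes, and in mt-Rnr1, mt-Rnr2, mt-Nd4 and mt-Nd5 leukemias 1, 3 and 5 lie above 0 and leukemias 2, 4 and 6 below.

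The leukemias did not move alike. mt-Rnr1, mt-Rnr2, mt-Nd4 and mt-Nd5 had the same sign in each of the 6 leukemias: higher with DEX in leukemias 1, 3 and 5 and lower in leukemias 2, 4 and 6. For mt-Nd5 the differences were 0.18, -0.52, 0.54, -0.20, 0.38 and -0.27 in leukemias 1 to 6, and for mt-Rnr1 they were 0.28, -0.59, 0.37, -0.26, 0.19 and -0.29. mt-Nd4l and mt-Nd6 shared the sign of mt-Rnr2 in 5 of 6 leukemias each, and the other 9 genes in 2 or 3. Each difference compares 1 DEX recipient with 1 VEH recipient and has no replicate within its leukemia, so these signs are a description. All 15 genes of a library share its depth and its scaling.

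Other measures moved between the arms of the same leukemias. The summed granulocyte markers differed by -0.73, -1.45, 0.53, -0.04, -0.51 and -1.32 on the log2 scale (DEX minus VEH) in leukemias 1 to 6, and the summed monocyte and macrophage markers by -0.71, -1.63, 0.80, 0.17, -0.70 and -1.42. The summed erythroid markers differed by -1.87, -2.97, 0.22, -0.41, 0.66 and 0.56. The summed T-lineage markers were lower with DEX in all 6 leukemias, with differences of -0.10, -0.15, -0.23, -0.10, -0.10 and -0.14. Nuclear coding genes also differed by length: in leukemia 2 the median difference was 0.18 for genes of up to 800 bases and -0.21 for those above 8000, and in leukemia 6 it was 0.26 and -0.18. In leukemias 4 and 5 the same medians were 0.14 and -0.03 in each, in leukemia 1 they were -0.07 and 0.02, and in leukemia 3 they were 0.04 and 0.02. The 15 measured members are short, from 204 bases (mt-Atp8) to 1824 (mt-Nd5). The part of these measures in the members' differences was not tested. Leaving out leukemias 2 and 6, or removing the trend with length, again gave 0 members higher and 0 lower. Over all genes, 687 were higher and 1140 lower without these leukemias, and 714 and 730 with the trend removed. The main fit called 0 members as well, so the counts of members cannot show such a part.

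**Figure D3:**
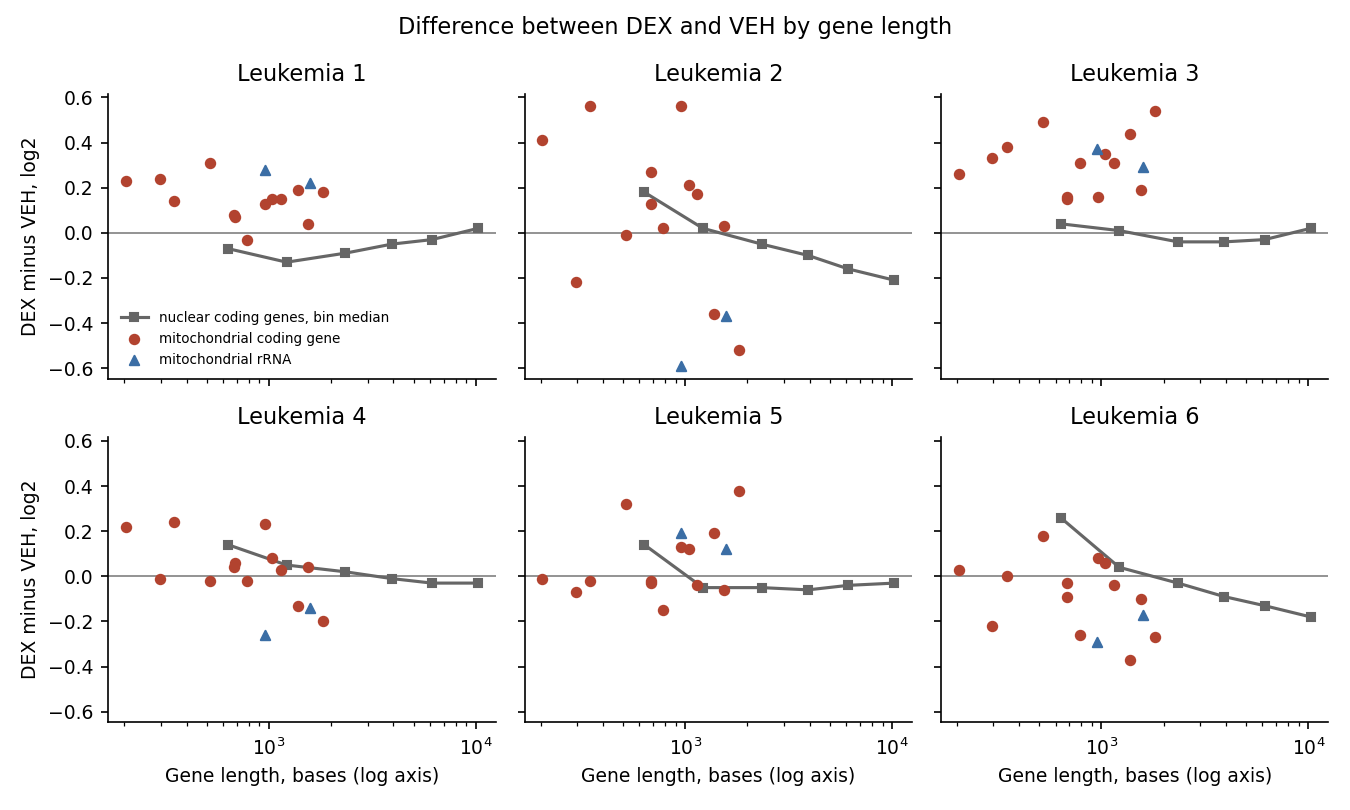
DEX minus VEH on the log2 scale against gene length (log axis) in each leukemia, with squares for the median of nuclear coding genes in 6 bins of length, circles for mitochondrial coding genes and triangles for the 2 ribosomal RNAs. Nuclear genes of up to 800 bases lie above those of more than 8000 in leukemias 2, 4, 5 and 6, most of all in leukemias 2 and 6, while in leukemia 3 every mitochondrial gene lies above the nuclear medians.

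The names of the samples in the labels end in a letter S with a number in all VEH libraries and in the DEX libraries of leukemias 1, 3 and 4, but not in the DEX libraries of leukemias 2, 5 and 6. What this suffix stands for is not given. Within leukemias 1, 3 and 4 the median difference of the 15 genes was 0.17, beside -0.02 over all genes, and within leukemias 2, 5 and 6 it was 0.00, beside -0.09. In each subset 0 members were higher and 0 lower, and with the suffix as a term in the fit 0 were called as well. Over all genes, 399 were higher and 525 lower of 12481 in leukemias 1, 3 and 4. In leukemias 2, 5 and 6 they were 270 and 275 of 12572, and with the suffix term 236 and 282 of 12358. The main fit gave 528 and 1147 of 12358, so these counts of 0 say little about the members. The suffix term takes up the difference in leukemias 2, 5 and 6, so that fit rests on leukemias 1, 3 and 4 for DEX.

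Differences between leukemias passed the test for some members. In the same fit, with an F test of the leukemia terms, 6 of 15 members (40.0%) passed an adjusted p under 0.05, beside 6321 of 12358 genes (51.1%), so the share was not above that of all genes. The 6 were mt-Nd6 (adjusted p = 0.0057), mt-Nd5 (0.00842), mt-Cytb (0.0103), mt-Nd4 (0.015), mt-Nd2 (0.0328) and mt-Atp6 (0.0357). With the mean of both libraries of a leukemia, mt-Nd5 stood at 183.9 FPKM in leukemia 3 and at 443 FPKM in leukemia 1 (2.41-fold), mt-Nd4 at 291 and 616 FPKM (2.12-fold) in the same leukemias, and mt-Nd6 at 125 and 215 FPKM (1.72-fold). These neighbours on the genome were thus lowest in leukemia 3 and highest in leukemia 1, with leukemia 6 next above leukemia 3 in all 3.

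The other 3 genes had another order. mt-Cytb was lowest in leukemia 2, at 1085 FPKM, and highest in leukemia 6, at 1764 FPKM (1.63-fold), and so was mt-Atp6, at 2648 and 4010 FPKM (1.51-fold). mt-Nd2 was lowest in leukemia 3, at 239 FPKM, and highest in leukemia 6, at 334 FPKM (1.4-fold). mt-Nd1 and mt-Co1 were the most even, with 1.12-fold and 1.13-fold between the highest and the lowest leukemia, and did not pass (adjusted p = 0.744 and 0.854).

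How far these 6 calls rest on single leukemias differed. mt-Nd5 and mt-Nd6 passed in all 21 alternative settings of this test. Without leukemia 6 the count was 3, and mt-Cytb had an adjusted p of 0.393, mt-Atp6 of 0.527 and mt-Nd2 of 0.0796. Without leukemia 3, mt-Nd4 had 0.103 and mt-Nd2 0.182; without leukemia 4, mt-Atp6 had 0.0611 and mt-Nd2 0.052; and without leukemia 1, mt-Atp6 had 0.0531. The 2 libraries of a leukemia are from different mice and treatments, so the test takes both as its repeats.

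**Figure D4:**
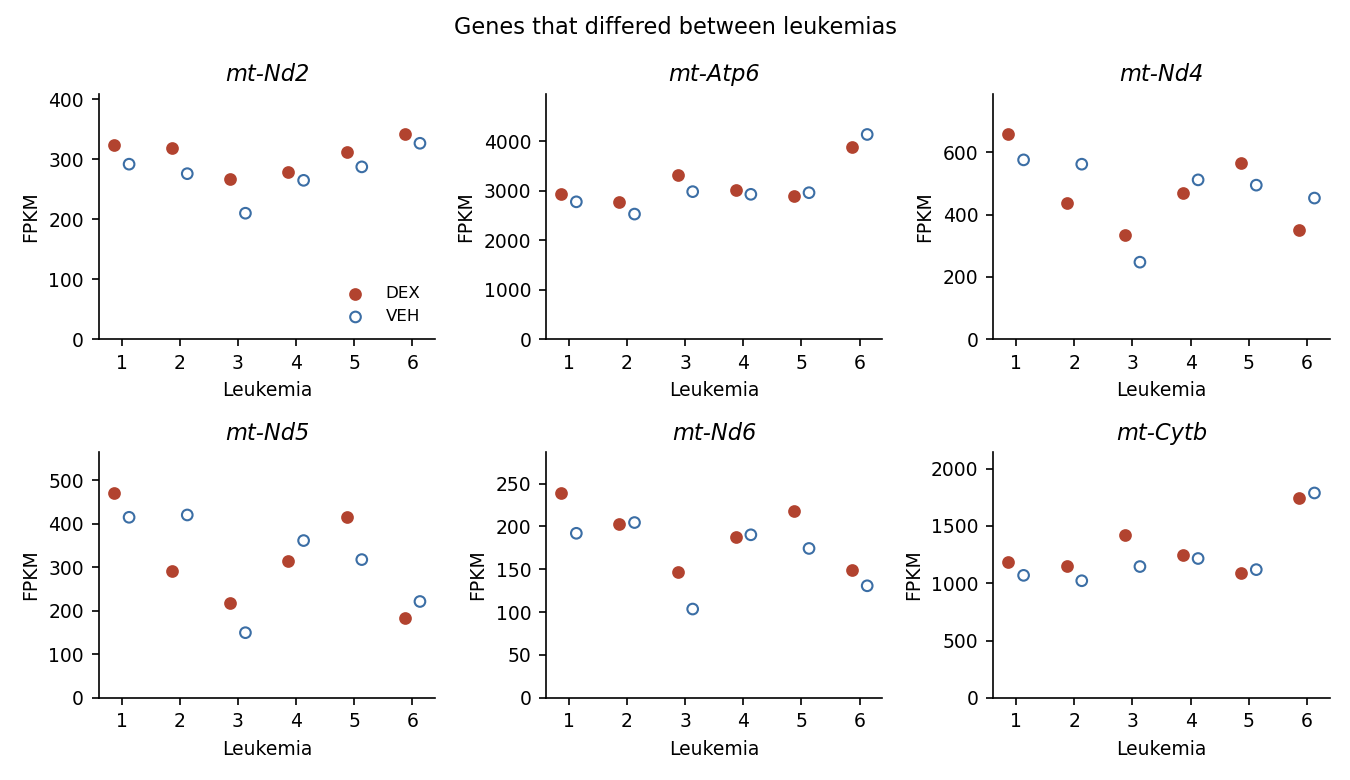
FPKM of the 6 members that differed between leukemias, in leukemias 1 to 6, with DEX as filled and VEH as open points, DEX on the left, and axes that start at 0. mt-Nd4, mt-Nd5 and mt-Nd6 are low in leukemias 3 and 6 and high in leukemia 1, while mt-Atp6 and mt-Cytb are highest in leukemia 6.

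Ratios between neighbouring members in a library do not depend on scaling by 1 factor per library. Quantile normalization is not such a scaling, and the ratios were not computed under it. The ratio of mt-Atp8 to mt-Atp6, which overlap by the 43 bases shown above and share a messenger RNA, was 1.54 to 2.00 in DEX libraries and 1.48 to 1.79 in VEH libraries, and averaged 1.78 ± 0.184 (DEX) and 1.61 ± 0.135 (VEH). It was higher with DEX in 6 of 6 leukemias, by 0.14 ± 0.09 (SD, n = 6) on the log2 scale. In an exact two-sided sign-flip test the p was 0.03125, the smallest that 6 pairs can give, and 0.156 after adjustment over the 5 ratios, so the ratio did not pass. With quantile normalization mt-Atp8 differed by -0.11 and mt-Atp6 by -0.05, against 0.19 and 0.05 in the main fit. The direction of this ratio thus depended on the normalization. The gene models are of 204 and 681 bases, and how the deposited FPKM allowed for fragment length at such sizes is not given in the sources used here.

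The other 4 ratios did not pass either. mt-Nd6 over mt-Nd5, which lie on opposite strands, averaged 0.633 ± 0.114 with DEX and 0.551 ± 0.0824 with VEH, a log2 difference of 0.19 ± 0.24 (exact p = 0.125, adjusted 0.312). mt-Nd1 over mt-Rnr2, the next coding gene downstream of the ribosomal RNAs over the larger of them, averaged 0.0930 ± 0.0171 (DEX) and 0.0800 ± 0.0181 (VEH), a log2 difference of 0.22 ± 0.40 (exact p = 0.21875, adjusted 0.365). Leukemia 2 alone differed by 0.92 there, and without it the difference was 0.08. mt-Rnr2 over mt-Rnr1 averaged 3.49 ± 0.38 with DEX and 3.38 ± 0.293 with VEH (exact p = 0.5, adjusted 0.625). mt-Nd4l over mt-Nd4, which share a messenger RNA, averaged 0.373 ± 0.0677 (DEX) and 0.370 ± 0.0746 (VEH) (exact p = 0.8125, adjusted 0.812). The level of this ratio carries the limit from Gm10222 given above.

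Nuclear subunits of the same complexes had no calls either. Of 70 tested nuclear subunits of complexes I, III and IV and ATP synthase, 0 passed in either direction, beside 13.6% of all genes tested. At an unadjusted p under 0.05 there were 8, in both directions, against 9.69% higher and 20.5% lower of all genes. Of 4 complex II genes 0 passed. Their median differences were 0.05 in complex I, 0.01 in complex III, 0.07 in complex IV, 0.06 in ATP synthase and 0.06 in complex II, beside medians of 0.16, 0.10, 0.02 and 0.12 for the mitochondrial subunits of the first 4. Ndufc2 of complex I (0.18 ± 0.07, adjusted p = 0.108) and Uqcrc1 of complex III (0.18 ± 0.07, adjusted p = 0.124) were higher with DEX in all 6 leukemias, and Cox5a of complex IV (-0.16 ± 0.07, adjusted p = 0.143) was lower in all 6, without passing. In ATP synthase the smallest p belonged to Atp5l (0.25 ± 0.12, adjusted p = 0.207).

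Mitochondrial subunits stood above nuclear ones in level. In complex IV their median was 6070 FPKM with DEX and 5860 FPKM with VEH, against 209 FPKM (DEX) and 196 FPKM (VEH) for the nuclear subunits. In ATP synthase the medians were 4350 FPKM (DEX) and 3970 FPKM (VEH), against 188 FPKM (DEX) and 176 FPKM (VEH) for the nuclear subunits. In complex III they were 1300 FPKM (DEX) and 1230 FPKM (VEH), against 108 FPKM (DEX) and 111 FPKM (VEH). In complex I they were 316 FPKM (DEX) and 314 FPKM (VEH), against 59.2 FPKM (DEX) and 60.7 FPKM (VEH). The highest nuclear subunit of complex I, Ndufa3 at 163 FPKM, was only just below the lowest mitochondrial one, mt-Nd4l at 168 FPKM (means of 12 libraries). Single libraries of mt-Nd4l ran from 124 to 209 FPKM, and its value carries the limit from Gm10222 given above.

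Genes that act on the mitochondrial genome, its RNA and their translation, or that regulate mitochondrial biogenesis, included calls where the members had none. Of 71 tested genes in 3 lists (18 of mitochondrial DNA maintenance and transcription, 41 of RNA processing, decay and translation, 13 regulators of mitochondrial biogenesis, 1 of them shared), 0 rose and 14 (19.7%) fell, beside 9.28% of all genes, with a median of -0.16 beside -0.05. Other settings gave between 2 and 24 falls. With leukemias 1 to 6 left out in turn, the count in the lists was 4, 9, 10, 5, 3 and 8 of 71. Falls over all genes changed too: in the same order they numbered 486, 753, 994, 584, 420 and 1035, against 1147 with all 6. Between 12286 and 12477 genes were tested in these settings. The largest fall was that of Myc, a transcription factor of cell growth that is also counted as a regulator of mitochondrial biogenesis, with 28.7 ± 5.34 FPKM with DEX and 72.5 ± 11.1 FPKM with VEH (-1.31 ± 0.12, adjusted p = 0.000651). Pprc1, a coactivator of the PGC-1 family, had 7.48 ± 3.14 FPKM (DEX) and 17.5 ± 4.95 FPKM (VEH) (-1.15 ± 0.08, adjusted p = 0.000315). These 2 falls held in all 22 other settings.

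The other falls were smaller. In the list on DNA and transcription, 4 of 18 fell: Twnk, the mitochondrial DNA helicase (-0.42 ± 0.08, adjusted p = 0.0128), Ssbp1, the single-strand binding protein (-0.26 ± 0.07, 0.0462), Mgme1, an exonuclease (-0.36 ± 0.10, 0.0468), and Mrpl12, a ribosomal protein that also binds POLRMT (-0.38 ± 0.11, 0.0498). The polymerase gene Polrmt (-0.07 ± 0.09, adjusted p = 0.627), Tfam (-0.15 ± 0.06, 0.151) and Tfb2m (0.00 ± 0.08, 0.993) did not pass. The list on RNA processing also held translation factors, such as Tufm and Gfm1, and its calls included such a factor. In this list, 6 of 41 fell, among them Trmt10c, a subunit of mitochondrial RNase P (-0.34 ± 0.07, adjusted p = 0.0196), the pseudouridine synthase Pus1 (-0.44 ± 0.10, 0.0241), Ptcd3 (-0.34 ± 0.08, 0.0304), the ribosomal RNA methyltransferase Mrm3 (-0.48 ± 0.13, 0.0414) and Lrpprc, which stabilises mitochondrial messenger RNAs (-0.26 ± 0.07, 0.0438). Its partner Slirp (-0.06 ± 0.08, adjusted p = 0.66), Elac2 (-0.07 ± 0.09, 0.625), Prorp, the nuclease subunit of RNase P (-0.05 ± 0.08, 0.689), and Pnpt1 (-0.28 ± 0.09, 0.0725) did not pass.

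Of the 13 regulators, Esrra, a nuclear receptor (-0.47 ± 0.09, adjusted p = 0.0146), and Ppargc1b, also of the PGC-1 family (-0.53 ± 0.13, 0.0319), fell beside Myc and Pprc1. Nrf1 did not pass (-0.01 ± 0.07, adjusted p = 0.937), and Ppargc1a averaged 0.0133 FPKM with DEX and 0.0100 FPKM with VEH and was not tested. Each of the smaller falls named here was lost in some of the 22 other settings, from 3 for Twnk to 15 for Ssbp1, Mgme1 and Lrpprc. In the same comparison, 5 of 15 tested T-lineage markers fell and 1 rose (median -0.15), and 2 of 15 granulocyte markers fell (median -0.44). The part of either in these falls was not tested. The nuclear genes are set beside the members as values only, and no relation between them was tested.

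**Figure D5:**
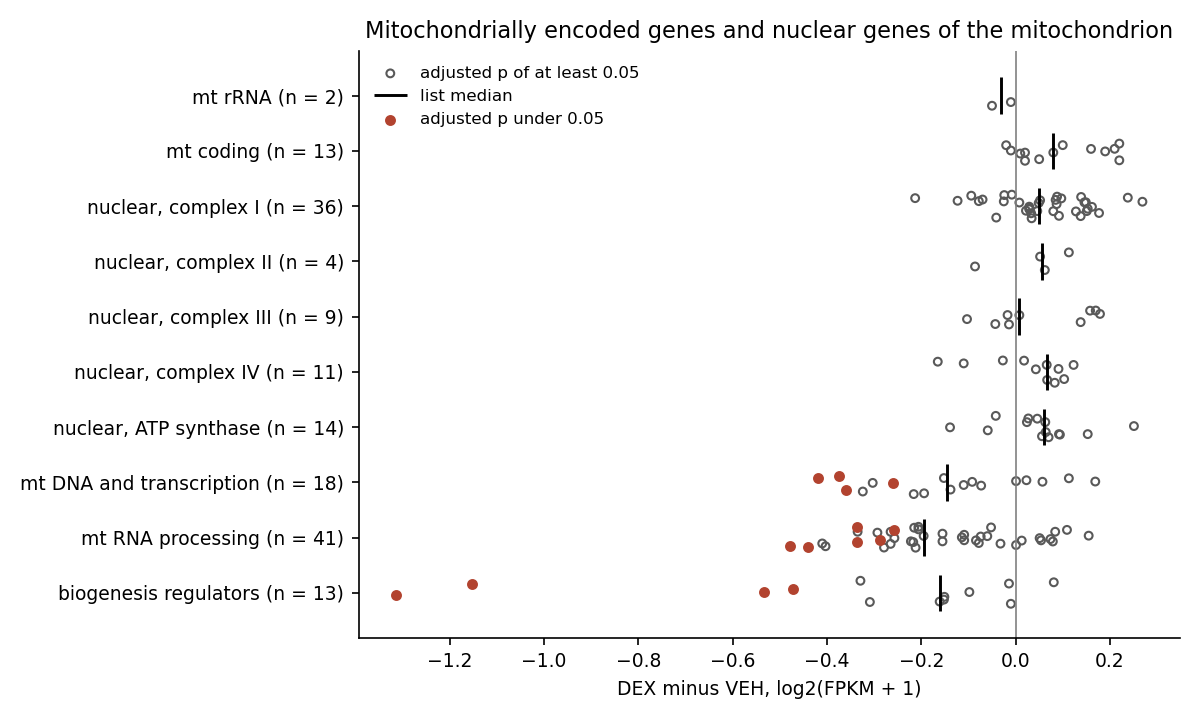
DEX minus VEH on the log2(FPKM + 1) scale for mitochondrially encoded genes, nuclear subunits of the respiratory complexes and nuclear genes that act on mitochondrial DNA, RNA and translation or regulate biogenesis, with 1 point per gene, filled where the adjusted p was under 0.05, and a line at the list's median. Filled points occur in the last 3 lists, with Myc at -1.31 and Pprc1 at -1.15, and in none of the lists of subunits.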

How the data were processed

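Total RNA from 12 libraries (6 DEX, 6 VEH) was analysed from the deposited table of FPKM, made by the authors; the submitters' processing notes name the build mm10 and the tools RSEM, edgeR and Bowtie2 (version 2), with no roles. Further filters and the annotation used are not given in the sources used here. From it, log2(FPKM + 1) was computed here with no other scaling, and genes with at least 1 FPKM in at least 6 libraries were tested (12358). limma 3.58.1 in R 4.3.3 (lmFit and trended eBayes, with 5 residual and 3.995 prior degrees of freedom) was fitted with leukemia as a block, two-sided, with Benjamini-Hochberg adjustment over all genes at 0.05. All adjusted p-values for genes are from limma. Errors of FPKM are SD and those of log2 differences are SE.

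Pairs came from the leukemia code shared by 2 titles: within pairs, deviations from group means correlated at 0.55 to 0.82 across genes, against at most 0.21 between leukemias. The p-values for DEX and VEH rest on the spread of the differences within leukemias, each between a DEX and a VEH recipient. The F test between leukemias uses the same residual spread as its error. Gene lengths, positions and sequences came from GENCODE M21 (GRCm38, the same assembly as mm10). Fragments were estimated with an assumed length of 150 bases over genes of 400 to 700 bases. No counts were in the file, so no counting interval was made. The test was tried on simulated data.

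The members and lists were chosen with earlier results of these data known. Named genes were all members, the genes of smallest p in each list (up to 4), and 12 fixed names. Not every gene this rule names is given in the text. Twnk, Prorp and Mrm3 are listed in the table as Peo1, 1110008L16Rik and Rnmtl1. The 22 alternatives covered the block, pseudocounts of 0.1 and 0.5, filters, scalings, the variance model, the name suffix and each leukemia left out.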

Additional observations from a re-analysis of the deposited data

Results flagged for a closer look

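Of 66 groups of 6 values (the 15 genes in DEX libraries, in VEH libraries and as differences, and 2 shares and 5 ratios likewise), 5 had a value far from the other 5, by a rule that chance meets in about 1 in 20 groups. The difference of mt-Nd1 between DEX and VEH was 0.56 on the log2 scale in leukemia 2, with 0.23 as the next highest. In VEH libraries, mt-Atp6 had 4133 FPKM in leukemia 6, with 2979 as the next highest, and mt-Cytb had 1787 FPKM in the same library, with 1215 as the next highest. In the VEH library of leukemia 3, mt-Nd4 had 247.4 FPKM and mt-Nd4l had 123.7 FPKM, with 452.9 and 166.7 as the next lowest. The VEH libraries of leukemias 3 and 6 thus held 2 such values each, and the DEX libraries 0.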

How the results depend on the processing

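Under all 22 other settings 0 of the 15 members were higher and 0 lower with DEX, and over the 330 values so obtained the smallest adjusted p from limma was 0.0519 (mt-Nd2, median-of-ratios scaling). Leaving out the leukemia block (no replicate block) gave 0 members, with 1 at an unadjusted p under 0.05, and over all genes 35 higher and 46 lower against 528 and 1147 with the block; mt-Nd1 then had an adjusted p of 0.381. mt-Nd1, mt-Nd2, mt-Nd3 and mt-Nd6 stayed above 0, but with TPM they shrank to 0.08, 0.02, 0.08 and 0.08 and the members at an unadjusted p under 0.05 numbered 0, against 4. The sign changed in 51 of the 330 values of all 15 members. All 51 belonged to the other 11 members, none of which passed, and the cause was not tested. Rescaling to TPM moved the median of all genes to -0.16, against -0.05.

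Signs changed as follows. Median-of-ratios scaling gave 0.01 for mt-Rnr1, 0.05 for mt-Rnr2, 0.04 for mt-Co3 and 0.05 for mt-Nd4. Quantile normalization gave -0.19 for mt-Co1, -0.18 for mt-Co2, -0.11 for mt-Atp8, -0.05 for mt-Atp6, -0.01 for mt-Nd4l and -0.05 for mt-Nd5. TPM gave -0.11 for mt-Co1, -0.06 for mt-Co2, -0.09 for mt-Atp6, -0.13 for mt-Nd4l, -0.12 for mt-Nd5 and -0.04 for mt-Cytb. Rescaling to nuclear protein-coding genes gave -0.00 for mt-Nd4l. Both the term for the name suffix and leukemias 1, 3 and 4 alone gave 0.13 for mt-Rnr1, 0.12 for mt-Rnr2, 0.09 for mt-Co3 and 0.17 for mt-Nd4. Their equal differences were fixed by design, since the term leaves the DEX difference to leukemias 1, 3 and 4. Leukemias 2, 5 and 6 alone gave -0.04 for mt-Co1, -0.17 for mt-Nd4l and -0.13 for mt-Nd5. Without leukemias 2 and 6 the values were 0.14 for mt-Rnr1, 0.12 for mt-Rnr2, 0.03 for mt-Co3 and 0.17 for mt-Nd4, and with the trend with gene length removed they were 0.03 for mt-Rnr2, 0.00 for mt-Co3, -0.00 for mt-Nd4l and 0.02 for mt-Nd4; these 2 settings were chosen after seeing the data.

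With each leukemia left out in turn, the difference ran from -0.13 to 0.06 for mt-Rnr1, -0.07 to 0.06 for mt-Rnr2, -0.01 to 0.05 for mt-Co1, -0.09 to 0.03 for mt-Co3, -0.06 to 0.05 for mt-Nd4l, -0.10 to 0.07 for mt-Nd4 and -0.08 to 0.13 for mt-Nd5, and the log2 ratio of mt-Nd4l to mt-Nd4 from -0.01 to 0.07.

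The count of members differing between leukemias was 3 with TPM and 3 in leukemias 2, 5 and 6 alone, and 3 to 6 with 1 leukemia left out. The difference in the share of coding genes was 0.284 percentage points of the FPKM of protein-coding genes. Without leukemias 2 and 6 the log2 ratio of mt-Rnr2 to mt-Rnr1 was -0.02 and that of mt-Nd4l to mt-Nd4 was -0.05.

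The file held no counts, and the values of mt-Nd4l and of the transfer RNAs are limited by sequence and by length.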
